A study of Mus musculus with 20 samples.

Results

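The kainate receptor subunits were examined in the adult mouse hippocampus after gestational exposure to nano-sized particulate matter (nPM) of urban air. The members were the 5 genes whose symbols run from Grik1 to Grik5, out of 48709 genes with deposited counts, and all 5 were among the 19797 genes with enough reads to be tested. RNA of the hippocampus of 20 C57BL/6 mice (C57BL/6J in the methods of the study) had been sequenced, with 5 samples per sex from each of the control and nPM groups. The dams of the nPM groups had inhaled re-aerosolized nPM from gestational day 2, on 3 days per week and for 5 h a day, and the dams of the controls had inhaled filtered air. The labels give the exposure as 300 mg/m3, whereas the methods of the study give the same figure in μg.

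The labelled ages were 17.71 to 18.29 weeks in females and 18.57 to 19.14 weeks in males, so sex and age cannot be told apart in these samples. The mice had been perfused with saline, and the right hippocampus was taken. The methods of the study describe injections of EdU, a label of dividing cells, for male mice and also state that every animal was injected, so whether the females had received EdU is uncertain here. Per the methods of the study, the adult offspring of an exposure group came from fewer litters than the mice sequenced from it. Some mice of an exposure group, of the same or the other sex, therefore shared a litter. The litter of each mouse is not given in the sources used here. The p-values therefore measure the spread between mice and not between dams.

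Kainate receptors are glutamate-gated cation channels that assemble as tetramers. The primary subunits GluK1, GluK2 and GluK3 (Grik1, Grik2 and Grik3) can form channels by themselves, while the secondary subunits GluK4 and GluK5 (Grik4 and Grik5) bind glutamate with higher affinity and need a primary subunit to reach the surface as functional channels. In the hippocampus these receptors are best known at the mossy fiber synapse, where axons of dentate granule cells contact CA3 pyramidal cells, and in interneurons, where they regulate transmitter release.

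The 5 subunits share the pore loop, and the stretch that codes for it shows how the primary and secondary subunits differ in sequence. The following 75-base coding windows were read 5′ to 3′ on the coding strand from the longest coding transcript of each gene in Gencode M21 on GRCm38, the mm10 assembly. Capitals mark the glutamine codon of the pore loop, the position that is recoded to arginine by RNA editing in GluK1 and GluK2.
Grik1: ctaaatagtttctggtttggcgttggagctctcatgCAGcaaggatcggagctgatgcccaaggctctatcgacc
Grik2: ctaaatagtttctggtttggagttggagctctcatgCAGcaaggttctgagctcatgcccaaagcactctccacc
Grik3: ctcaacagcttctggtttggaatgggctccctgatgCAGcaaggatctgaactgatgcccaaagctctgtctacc
Grik4: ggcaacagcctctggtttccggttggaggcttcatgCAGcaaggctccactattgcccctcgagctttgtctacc
Grik5: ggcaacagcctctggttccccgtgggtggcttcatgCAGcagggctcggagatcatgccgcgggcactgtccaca

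The marked codon was codon 636 in Grik1, 621 in Grik2, 623 in Grik3, 606 in Grik4 and 605 in Grik5. Grik1 and Grik2 had the same base at 67 of 75 positions (89.3%), and Grik3 matched each of them at 60 positions (80.0%). Grik4 and Grik5 matched at 56 positions (74.7%), and a primary and a secondary subunit matched at 46 to 50 positions (61.3 to 66.7%). The windows of Grik1, Grik2 and Grik3 cross an intron, which those of Grik4 and Grik5 do not. They lie on the minus strand at chr16:87936084-87940580 (Grik1), chr10:49240765-49244367 (Grik2), chr9:42547587-42547661 (Grik4) and chr7:25022461-25022535 (Grik5), and on the plus strand at chr4:125691171-125693993 (Grik3). The genomic codon is shown, and the counts do not tell edited from unedited transcripts.

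Per mm10 and the deposited gene table, Grik1 (ENSMUSG00000022935.15) spans chr16:87895901-88290258, Grik2 (ENSMUSG00000056073.14) chr10:49099460-49788766 and Grik3 (ENSMUSG00000001985.9) chr4:125490700-125714173. Grik4 (ENSMUSG00000032017.14) spans chr9:42518135-42944493, and Grik5 (ENSMUSG00000003378.9), the shortest of them, chr7:25009849-25072346. Grik2 overlaps the gene Gm26543, Grik3 overlaps Ftl2-ps and Mir692-2, and Grik4 overlaps Gm24420 and Gm27509. No strand setting is given in the sources used here, so reads of these overlaps may be split between the genes. The longest transcript of Grik2 had the lowest GC content of the subunits (37.9%) and that of Grik5 the highest (61.7%).

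Total counts per sample ranged from 19092067 to 38663408, and each subunit had between 475 and 5515 counts in every sample. The marker genes of dentate granule, CA3, CA2 and CA1 cells were all detected, and the sex-linked genes matched the labelled sex in 20 of 20 samples. The library of nPM females 4 stood apart by the dependence of its counts on GC content, taken relative to the mean over the samples. On this relative scale its log2 expression changed by -0.41 per 10 percentage points of GC, against -0.16 to 0.21 in the others. The library of nPM females 1 had the highest summed level of 6 striatal markers (270.7 CPM, that is counts scaled to the library size, against 35.1 to 103.1 in the others). Choroid plexus markers ranged from 34.7 to 8171 CPM over the samples, with low and high samples in nPM females, control males and nPM males. In bulk RNA of this kind, fewer cells of a type and less RNA per cell cannot be told apart.

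To compare the subunits with each other, counts were scaled to the gene length and to the TMM-adjusted library size as RPKM. Grik2 was at 16.7 ± 1.53 RPKM (SD, n = 20) and Grik5 at 15.5 ± 4.21. Grik4 (5.49 ± 1.26), Grik3 (5.21 ± 1.15) and Grik1 (3.75 ± 0.756) were lower. Grik2 was above Grik5 in 12 of 20 samples, and the order of this pair differed by sex. Grik2 was the higher in 10 of 10 males but in 2 of 10 females, and in 0 of 5 control females. In control females Grik2 was at 16.7 ± 1.05 RPKM and Grik5 at 18.96 ± 2.62 (SD over 5 samples), and in control males they were at 16.7 ± 2.30 and 12.04 ± 1.76. Grik5 was above Grik4 in 20 of 20 samples, Grik4 above Grik3 in 11 of 20, and Grik3 above Grik1 in 19 of 20. Of the tested genes, 85.8% had a mean RPKM at or below that of Grik2 and 52.5% at or below that of Grik1.

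Grik2, the principal primary subunit of hippocampal neurons, made up 36.2% of the summed RPKM of the subunits on average, and Grik5, the principal secondary subunit, 32.8%. In females the share of Grik2 was below that of Grik5 (32.0 and 36.2% in controls, 33.9 and 37.1% after nPM). In males it was above (38.9 and 28.1% in controls, 39.9 and 29.8% after nPM). Grik4 made up 11.7%, Grik3 11.2% and Grik1 8.06%. The summed level of the primary subunits over that of the secondary subunits was 1.09 ± 0.169 in control females (SD over 5 samples), against 1.08 ± 0.320 in nPM females. It was 1.52 ± 0.272 in control males, all of them above all control females, and 1.45 ± 0.190 in nPM males, which overlapped with nPM females. The 5 kainate receptor genes together reached 46.7 ± 5.91 RPKM (n = 20), between the 7 NMDA receptor genes (145.6 ± 19.2) and the 2 delta receptor genes (12.04 ± 1.19). The 4 AMPA receptor genes, which encode the channels of fast excitatory transmission, reached 311.7 ± 30.6.

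**Figure D1:**
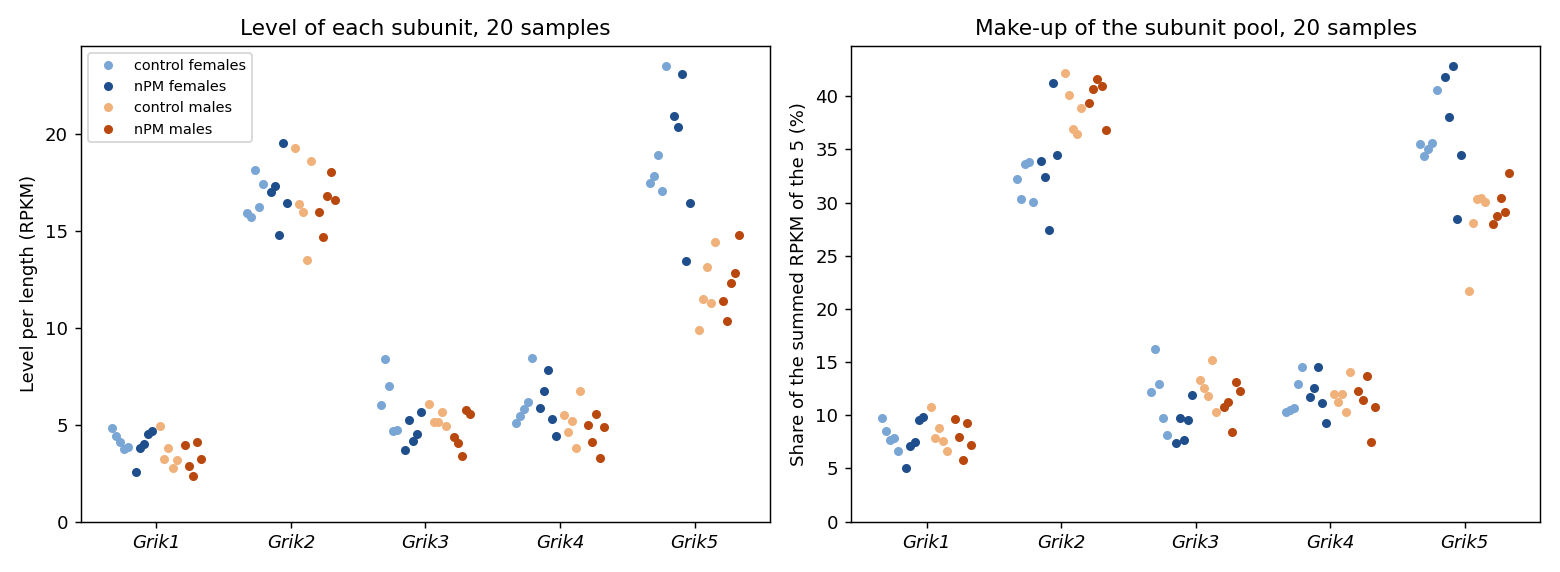
Level per length (left, RPKM) and share of the summed RPKM of the 5 subunits (right, %) in the 20 samples, each point a sample colored by group. Grik2 and Grik5 lie above the other 3 subunits, and the points of Grik5 spread the most, from 9.89 to 23.5 RPKM, with those of males at the lower end.

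To find the effect of gestational nPM on the subunits, limma-voom was fitted to all tested genes with sex as a covariate. None of the 5 subunits passed p under 0.005, the threshold of the study, where 0.141% of the tested genes passed it, and the smallest adjusted p over all genes was 0.9998. Grik3 had the lowest p of the subunits, with an nPM difference of -19.4%, but it did not pass. The other 4 subunits differed by less than their errors.

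Grik3, a primary subunit that is found on both sides of the synapse, was at 54.0, 75.3, 62.9, 42.1 and 42.4 CPM in control females 1 to 5. In nPM females it was at 33.2, 46.9, 37.3, 40.6 and 51.0 CPM. In 3 of 5 control females Grik3 was higher than in every nPM female, and the other control females lay within the range of the nPM group. Control males were at 54.4, 46.0, 46.0, 50.6 and 44.4 CPM, and nPM males at 39.2, 36.6, 30.5, 51.9 and 49.7 CPM. In 3 of 5 nPM males Grik3 was lower than in every control male, so the groups overlapped in both sexes.

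The mean of Grik3 was 55.3 ± 14.1 CPM for control females (SD over 5 samples) against 41.8 ± 7.17 for nPM females. For males it was 48.3 ± 4.11 in controls against 41.6 ± 9.02 after nPM. Over both sexes the estimate was -0.31 on the log2 scale (SE 0.11, n = 20 samples, limma p = 0.0120, adjusted p = 0.9998, rank 71 of 19797). At this nominal level the background was 2.1% of genes with p under 0.05 and 1.11% with p under 0.05 and a lower value after nPM, and 1 of 5 subunits was in each of these sets. Leaving out 1 sample at a time gave log2 fold changes from -0.36 to -0.26, with a limma p of 0.00438 without nPM males 4 and of 0.0251 without nPM males 3. It was past 0.005 in 1 of 20 such fits. Without nPM females 1 the log2 fold change was -0.27 (n = 19 samples, limma p = 0.0249), and without nPM females 4 it was -0.31 (limma p = 0.0182).

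Within females the log2 fold change of Grik3 was -0.37 (SE 0.17, limma p = 0.0449, exact permutation p = 0.0952), where 0.0909% of genes passed p under 0.005 and 1.99% p under 0.05. Its limma p in females was 0.117 without control females 2, the sample with the highest Grik3 of all, and 0.103 without nPM females 1. Within males it was -0.24 (SE 0.13, limma p = 0.0996, exact permutation p = 0.151), where 0.207% of genes passed 0.005. The smallest p that 5 samples against 5 allow in the two-sided exact test is 0.00794. The difference between the sexes in the nPM effect was 0.15 for Grik3 (SE 0.23, n = 20 samples, limma p = 0.524). None of the subunits passed the interaction test, which 0.217% of genes did.

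**Figure D2:**
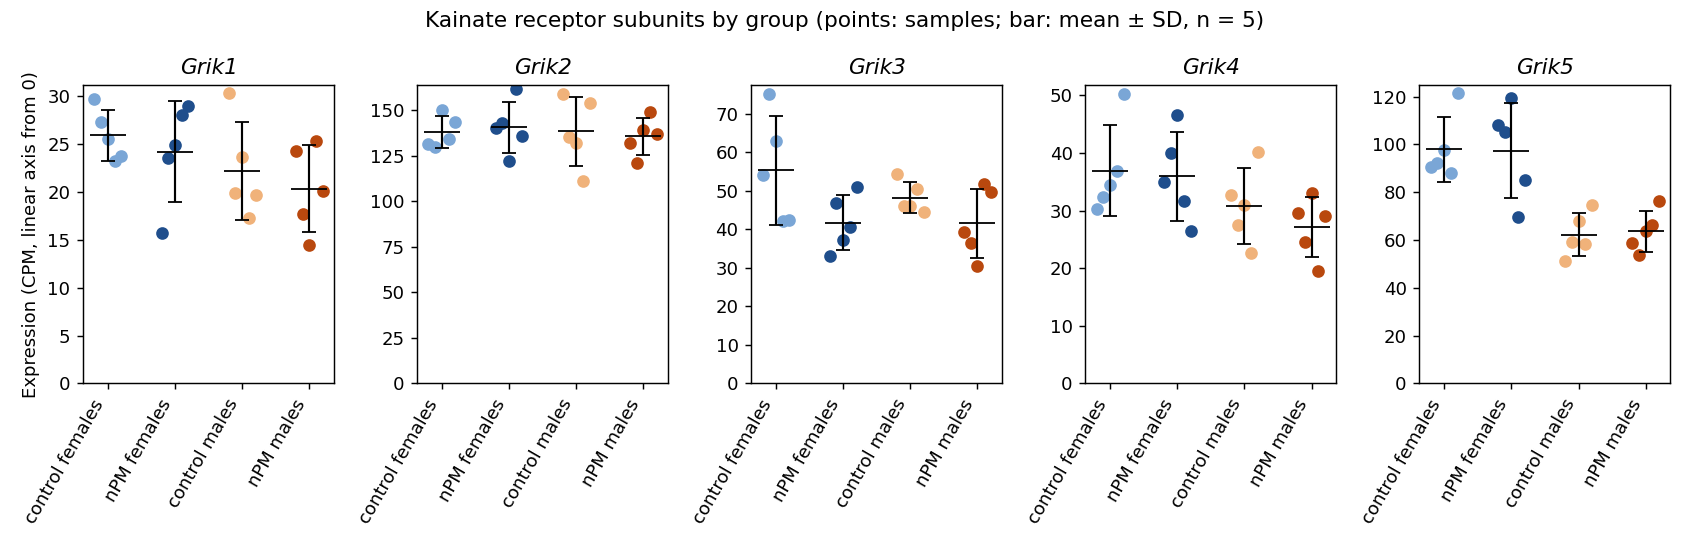
Expression of the 5 subunits (CPM, linear axes from 0) in the 4 groups, with a point for each sample and the mean ± SD of 5 samples. Grik5 is lower in both male groups, Grik3 has a lower mean in both nPM groups with overlapping points, and Grik2 is at about the same level in all groups.

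Grik1, the primary subunit best known from interneurons, was at 23.3 to 29.7 CPM in control females and 15.7 to 29.0 in nPM females. In males it was at 17.2 to 30.4 CPM in controls and 14.4 to 25.3 after nPM. Its nPM difference over both sexes was -7.92% (-22.1 to 8.89%, 2 SE, n = 20 samples, limma p = 0.336). Grik2 was the steadiest subunit, with the smallest spread relative to its mean over the 20 samples. It was at 130.1 to 150.2 CPM in control females, 122.2 to 161.5 in nPM females, 111.5 to 159.3 in control males and 121.4 to 149.4 in nPM males. Its nPM difference was 0.127% (-8.12 to 9.11%, n = 20 samples, limma p = 0.977), the narrowest interval of the subunits.

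For the secondary subunits, the nPM difference over both sexes was -6.95% for Grik4 (-21.4 to 10.2%, 2 SE, n = 20 samples, limma p = 0.404) and 0.599% for Grik5 (-11.6 to 14.5%, limma p = 0.927). The means of Grik5 in control females (98.0 ± 13.5 CPM) and nPM females (97.4 ± 19.9) differed by less than the spread between samples, as did those in control males (62.2 ± 9.08) and nPM males (63.7 ± 8.55). The 3 lower and 2 higher estimates gave a median log2 fold change of -0.10 over the subunits, against -0.01 over all tested genes.

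**Figure D3:**
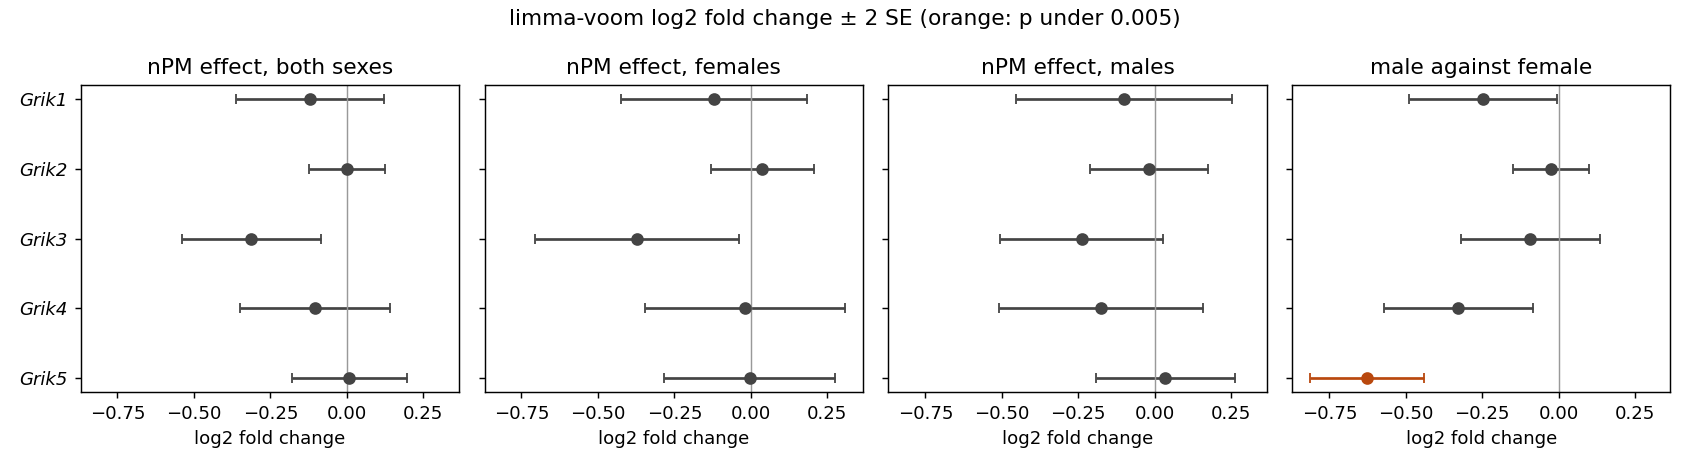
limma-voom log2 fold changes of the 5 subunits with bars of 2 SE for the nPM effect in both sexes, in females and in males, and for males against females. Only Grik5 in the comparison of males with females is past p under 0.005 (orange), at -0.63, and Grik3 lies below 0 in all 3 nPM comparisons.

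Markers of CA2 pyramidal cells had higher values after nPM where those of Grik3 were lower, without passing the test. The summed level of the 4 CA2 markers (Rgs14, Amigo2, Map3k15 and Cacng5, 4 of 4 detected and none at 0) was 77.7 to 120.8 CPM in control females and 87.6 to 142.0 in nPM females, and 70.0 to 111.0 in control males and 96.0 to 144.5 in nPM males. None of the 4 CA2 markers passed p under 0.005 for nPM. The estimates were higher for 4 of 4 over both sexes and for 3 of 4 within each sex. Such a shift was not particular to CA2. Over both sexes, 6 of 6 microglia, 6 of 6 oligodendrocyte and 3 of 3 tested blood markers also had higher estimates. So did 5 of 6 dentate granule, 5 of 6 striatum and 5 of 7 choroid plexus markers. Lower estimates were seen for 6 of 7 interneuron, 6 of 7 neocortex and 4 of 6 thalamus markers. The median log2 fold change over all tested genes was -0.01. Whether the share of CA2 tissue has a part in the values of Grik3 was not tested.

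The sexes differed in Grik5, the widely expressed secondary subunit. Grik5 was at 90.4, 92.1, 97.7, 88.2 and 121.4 CPM in control females and at 108.1, 105.1, 119.3, 69.6 and 85.1 CPM in nPM females. It was at 51.1, 59.3, 67.9, 58.2 and 74.5 CPM in control males and at 58.7, 53.6, 63.6, 66.3 and 76.3 CPM in nPM males. Every control male was below every control female, and among nPM mice only nPM females 4, the library that stood apart by GC, lay within the range of the males.

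With exposure as a covariate Grik5 was lower in males, with a difference of -35.3% (log2 fold change -0.63, SE 0.093, n = 20 samples, limma p = 1.17e-06, adjusted p = 3.83e-05). The difference was -0.66 in controls and -0.60 in nPM mice on the log2 scale, with exact permutation p = 0.00794 and 0.0159. It was past 0.005 in all 20 fits that left out 1 sample (-0.68 to -0.59), and was -0.68 without nPM females 4. Differences between the male and female samples, which differed in age as well and may have differed in EdU injection, were widespread. Of all genes, 31.1% passed p under 0.005, and Grik5 had rank 605 by p. With 1 of 5 subunits past this threshold, the subunits did not exceed the background.

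Grik4, the secondary subunit that marks CA3 pyramidal cells, was at 30.3, 32.4, 34.5, 36.9 and 50.3 CPM in control females and at 35.0, 40.1, 46.6, 31.6 and 26.5 CPM in nPM females. It was at 32.7, 27.4, 31.0, 22.7 and 40.2 CPM in control males and at 29.6, 24.5, 33.1, 19.6 and 29.0 CPM in nPM males. The sexes overlapped in both exposure groups. The difference of Grik4 between males and females was -20.3% (log2 fold change -0.33, SE 0.12, n = 20 samples, limma p = 0.0138, adjusted p = 0.0367), and its adjusted p was 0.0653 without the filter on low counts. Its p was 0.00409 without control males 5, the male with the highest Grik4.

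By adjusted p under 0.05, 2 of 5 subunits (Grik4 and Grik5) were lower in males, where 40.4% of all genes passed and 21.6% passed with a lower value in males. Grik1 had a log2 fold change of -0.25 (n = 20 samples, limma p = 0.0527), Grik3 of -0.09 (p = 0.426) and Grik2 of -0.03 (p = 0.684). The median over the 5 subunits was -0.25, against 0.02 over all tested genes.

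Other measures separated the sexes as well. The share of counts in 6 nuclear long noncoding RNAs (Malat1, Meg3, Snhg11, Miat, Neat1 and Rian, chosen after their values were seen) was 2.11 to 3.07% in females and 1.14 to 1.82% in males. The summed level of the 4 endothelial markers (4 of 4 detected, none at 0) was 119.2 to 174.0 CPM in females and 96.6 to 113.7 CPM in males. The part of either in the sex difference of Grik5 was not tested. The CA3 markers overlapped between the sexes, with 306.8 to 498.4 CPM in females and 289.9 to 406.2 CPM in males. Their medians were lower in males, at 323.8 CPM in controls and 339.0 after nPM, against 384.4 and 384.5 in females. Of the 6 CA3 markers, 3 had lower and 3 higher estimates in males. One of the lower ones, that is 1 of 6, passed p under 0.005, where 31.1% of all genes did. The part of the CA3 markers in the sex difference of Grik5 was not tested.

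Over the 20 samples, with the mean of each group removed, the subunits varied together with markers of hippocampal fields. Grik4 was higher in samples with more CA3 markers (Bok, Cdh24, Coch, Iyd, Nptx1 and Nectin3), with Pearson r = 0.80 (permutation p = 0.00023, adjusted p = 0.00607) and Spearman rho = 0.79 (permutation p = 0.00016, adjusted p = 0.00373). The coefficient was 0.96 in females and 0.63 in males. Grik5 had r = 0.79 with the same list (permutation p = 0.00026, adjusted p = 0.00607) and rho = 0.82 (permutation p = 8.0e-05, adjusted p = 0.00373), with 0.72 in females and 0.90 in males. The value of a list was the log2 of its summed CPM, so its most abundant markers weighed most. In the CA3 list this was Nptx1, with a mean of 249.2 CPM against 5.59 to 67.3 for the others. Relations with single markers were not tested. CA3 pyramidal cells are the postsynaptic side of the mossy fiber synapse.

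Of the primary subunits, Grik1 and Grik3 were lower in samples with more CA2 markers, while Grik2 (r = -0.38) did not pass. Grik1 had r = -0.78 (permutation p = 0.00024, adjusted p = 0.00607) and rho = -0.79 (permutation p = 0.00013, adjusted p = 0.00373), with -0.65 in females and -0.90 in males. Grik3 had r = -0.74 (permutation p = 0.00061, adjusted p = 0.0107) and rho = -0.80 (permutation p = 0.00043, adjusted p = 0.00752), with -0.91 in females and -0.56 in males. Grik1 was also lower where choroid plexus markers were higher, with r = -0.77 (permutation p = 0.00086, adjusted p = 0.0120) and rho = -0.77 (permutation p = 0.00119, adjusted p = 0.0167), and with -0.62 in females and -0.87 in males. Without nPM females 1, the sample with the highest choroid plexus markers, r was -0.71 and the adjusted permutation p 0.0869.

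These were 5 of 70 relations between a subunit and a marker list, with p-values adjusted over the 70. Without the 2 samples farthest from the median of the list, r was 0.69 for Grik4 and 0.69 for Grik5 with CA3, -0.69 for Grik1 and -0.74 for Grik3 with CA2, and -0.74 for Grik1 with choroid plexus. Each adjusted permutation p was then 0.0660, so none of the 5 calls held without those samples, although r stayed at 0.69 or more in size. Rgs14 weighed most in the CA2 list (mean 64.1 CPM, against 8.46 to 21.9 for the others). Ttr weighed most in the choroid plexus list (1636 CPM, against 10.2 to 96.9). The values of a sample come from 1 library and a dissection, and a correlation does not tell in which cells a subunit is expressed.

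**Figure D4:**
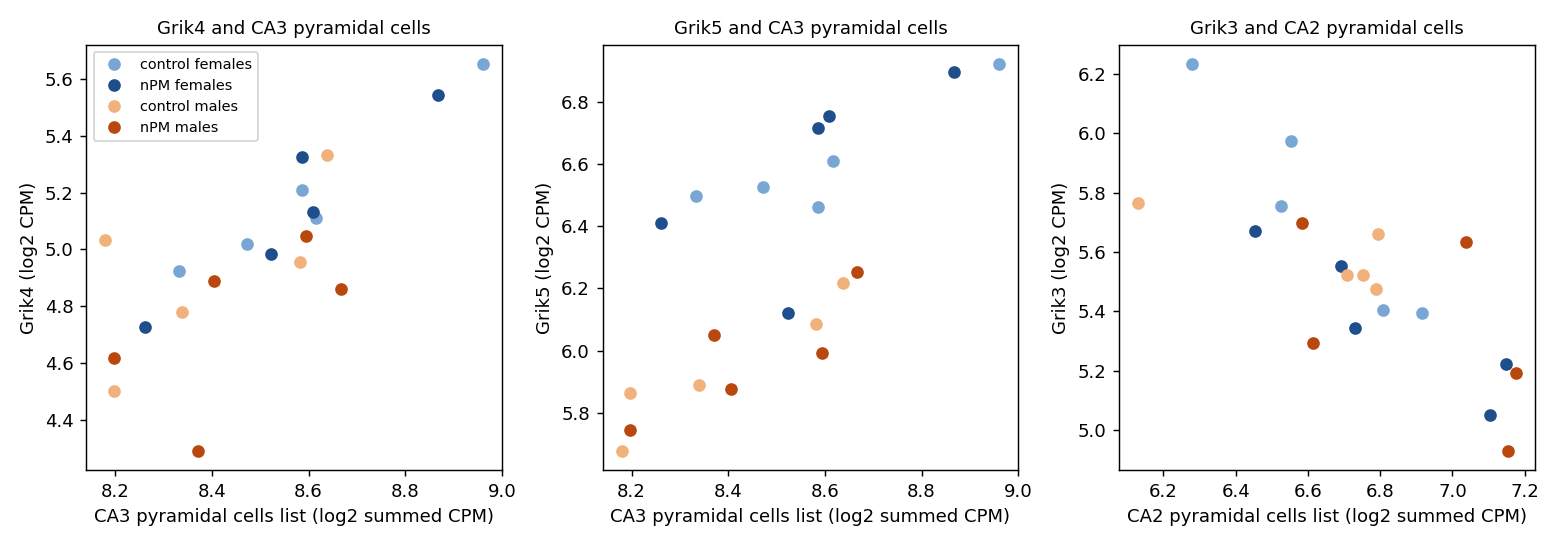
Log2 CPM of Grik4 and Grik5 against the log2 summed CPM of the CA3 markers, and of Grik3 against that of the CA2 markers, with a point for each of the 20 samples before the group means were removed. Grik4 and Grik5 rise with the CA3 list, with the males lower for Grik5, and Grik3 falls with the CA2 list.

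The remaining 65 relations did not pass. Thalamic markers had r = -0.53 with Grik4, and -0.83 without nPM males 1 (adjusted permutation p = 0.00175) and without the 2 farthest samples (adjusted permutation p = 0.0105). Other relations of Grik1, Grik3 and Grik5 passed in some fits with 1 sample left out, namely neocortex with Grik1 without control males 1, control males 3, nPM females 5 or nPM males 5 (r = 0.67 to 0.72), dentate granule cells with Grik1 without nPM females 3 (-0.66), thalamus with Grik3 without nPM males 1 (0.71) and microglia with Grik5 without nPM males 2 (0.73). Dentate granule markers had r between -0.57 (Grik1) and 0.30 (Grik2), CA1 markers between -0.24 (Grik2) and 0.23 (Grik5), and interneuron markers between -0.33 (Grik4) and 0.33 (Grik3). Among tissues next to the hippocampus, neocortex reached 0.64 and striatum -0.64 with Grik1. Among other cells, microglia reached 0.66 with Grik5, oligodendrocytes -0.57 with Grik2, astrocytes -0.35 with Grik3, and blood -0.43 and endothelial cells -0.20 with Grik5.

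**Figure D5:**
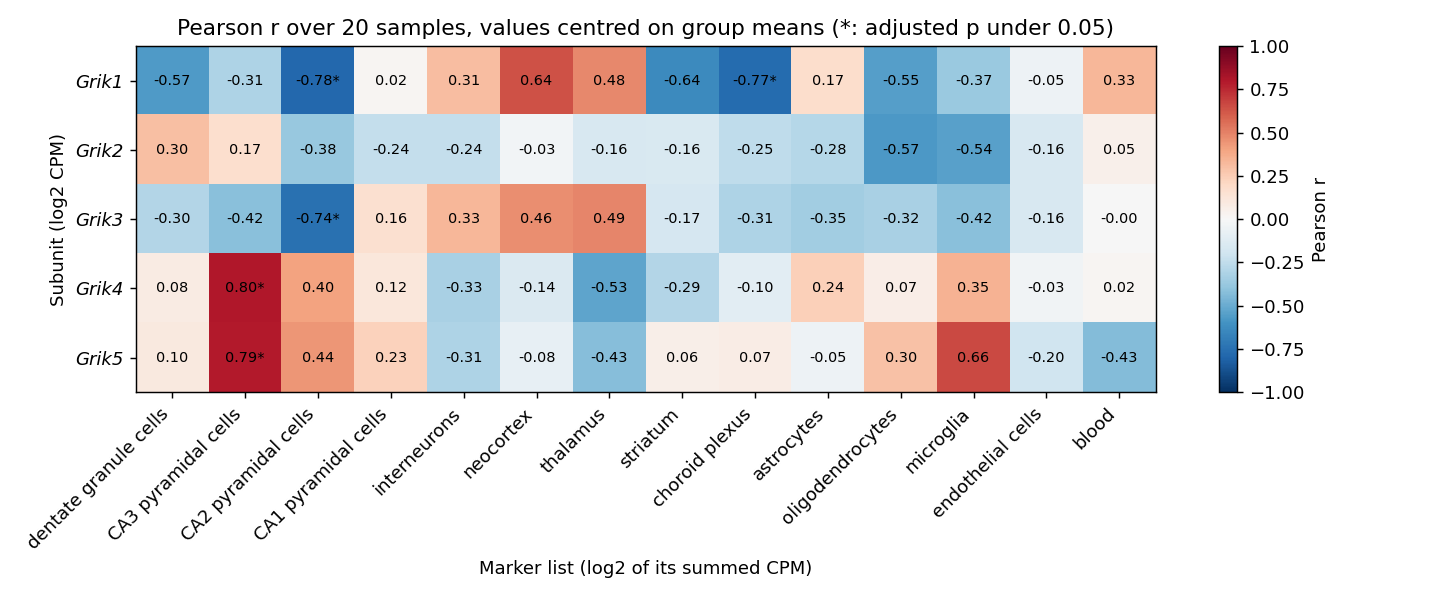
Pearson r over 20 samples between each subunit (rows) and the summed level of each of 14 marker lists (columns), with group means removed and stars at an adjusted permutation p under 0.05. The 5 starred cells are CA3 with Grik4 and Grik5, CA2 with Grik1 and Grik3, and choroid plexus with Grik1.

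Among the 10 pairs of subunits, Grik1 and Grik3 had r = 0.60 (permutation p = 0.00397, adjusted p = 0.0397) and rho = 0.62 (permutation p = 0.00541, adjusted p = 0.0541). Their r was 0.57 in females, 0.65 in males and 0.52 without the 2 farthest samples, with an adjusted permutation p of 0.276. The call was thus lost without those samples, and it was also lost in 9 of 20 fits with 1 sample left out (control females 2, 4 and 5, control males 1 and 5, nPM females 1 and 5, and nPM males 2 and 3), with r between 0.51 and 0.64. The secondary subunits Grik4 and Grik5 had r = 0.57 and rho = 0.55 (permutation p = 0.0199 and 0.0223, adjusted p = 0.0901 and 0.0839), with r = 0.66 without nPM males 4 (adjusted permutation p = 0.0496). Grik3 and Grik4 had r = -0.52 and rho = -0.54 (permutation p = 0.0270 and 0.0252, adjusted p = 0.0901 and 0.0839). The other 7 pairs had r between -0.34 and 0.32.

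The genes most like each subunit over the 20 samples were described by r of log2 CPM with group means removed, without a test. They were Pcdh15 (0.91), A230006K03Rik (0.91) and the noncoding RNA Rian (0.90) for Grik1, and Gm42942 (0.91), Gm42943 (0.86) and Gm45201 (0.85) for Grik2. For Grik3 they were Vill (0.91), Bglap3 (0.85) and Plxdc1 (0.83). For Grik4 they were Arhgef26 (0.90), Nt5dc3 (0.86) and Homer3 (0.86), a postsynaptic scaffold protein. For Grik5 they were Sgsm2 (0.97), Adgrb2 (0.95), an adhesion receptor of the brain, and Celf3 (0.94), an RNA-binding protein of neurons. The mean levels of the named genes ranged from 1.13 CPM (Bglap3) to 700.2 CPM (Rian), with Vill at 2.19 and Gm42942 at 3.68.

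Of 21 genes for partners of kainate receptors, 20 were tested, and Klhl17 was not analysed here. They include the auxiliary subunits Neto1 and Neto2, the mossy fiber ligands C1ql2 and C1ql3, the scaffolds Grip1, Pick1, Sdcbp, Dlg1 to Dlg4 and Cask, the adhesion partners Cdh2 and Ctnnb1, the transport motor Kif17, the editing enzymes Adar and Adarb1, and the protease Senp1. None of the 20 passed p under 0.005 for nPM in both sexes, in females, in males or in the interaction. Over both sexes 5 were higher and 15 lower after nPM, with a median log2 fold change of -0.06. Over all tested genes the median was -0.01. The median absolute log2 fold change over all tested genes was 0.06, which has no sign and is not a like measure to the partner median. Whether the partners differed as a set from other genes was not tested. Neto1 was at -0.18 (SE 0.12, n = 20 samples, limma p = 0.150) and Neto2 at -0.07 (SE 0.08, p = 0.349).

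C1ql2, which is also in the dentate granule list, was at 0.28 (SE 0.13, n = 20 samples, limma p = 0.0475), and C1ql3 at -0.10 (SE 0.11, p = 0.359). Adarb1, an enzyme that edits receptor transcripts, had an interaction of 0.23 (n = 20 samples, limma p = 0.0351). In males the AMPA subunit Gria1 was at 0.19 and the NMDA subunit Grin2a at 0.24 (n = 10 samples, limma p = 0.0214 and 0.0459). At p under 0.05, 416 of 19797 genes passed over both sexes, 848 in males and 751 in the interaction. The adjusted p-values of C1ql2, Adarb1, Gria1 and Grin2a in these comparisons were between 0.963 and 0.9998. None of the AMPA, NMDA or delta receptor genes passed p under 0.005 in an nPM comparison.

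Between the sexes, 3 of 20 partners were higher in males at p under 0.005. They were Neto2 (log2 fold change 0.36, adjusted p = 0.00095), Ctnnb1 (0.30, adjusted p = 3.43e-05) and Sdcbp (0.36, adjusted p = 7.88e-05) in the limma fit. Another 5 were lower in males, namely the scaffold Dlg4, known as PSD-95 (-0.49, adjusted p = 4.31e-05), Senp1 (-0.38, adjusted p = 7.98e-05), Kif17 (-0.32, adjusted p = 0.0101), Adar (-0.18, adjusted p = 0.0126) and Adarb1 (-0.18, adjusted p = 0.0137). The 8 of 20 partners past 0.005 stand beside 31.1% of all genes. Of the other receptor families, 5 of 6 tested NMDA genes had lower estimates in males. Of these, Grin1 (-0.34), Grin2c (-0.38) and Grin2d (-0.74) passed 0.005 in limma, that is 3 of 6 beside the same 31.1%. None of the 4 AMPA genes or 2 delta genes passed it. In the AMPA family the smallest p was 0.126 (Gria1), and in the delta family it was 0.0119 (Grid1, adjusted p = 0.0323). The median log2 fold change of the 20 partners was -0.03.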

How the data were processed

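Libraries of rRNA-depleted RNA were aligned by the authors with HISAT2 (build mm10), and reads on each gene were counted by featureCounts (1.5.0-p3 per the submitters' processing notes). The deposited values are whole-number counts without normalization, with a gene table that holds lengths. The table's mean RPKM over all samples, also deposited, was not used. Groups were taken from the labels.

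TMM factors, edgeR's filterByExpr with the 4 groups (count minimum 10, total minimum 15) and voom with an offset of 0.5 counts were applied, and limma's moderated test was fitted to 19797 genes (R 4.3.3, edgeR 4.0.16, limma 3.58.1). Thresholds were p under 0.005 and a Benjamini-Hochberg adjusted p under 0.05. RPKM was computed from the counts and the deposited gene lengths. Single subunits were also compared by two-sided exact permutation tests of log2 CPM. Correlations used log2 CPM, group means removed and 100000 permutations within groups. Alternatives were edgeR's quasi-likelihood test, DESeq2 1.42.0, RLE normalization, no filter, sample quality weights, age as a covariate, 1 fit of the 4 groups, a replicate block, removal of the GC trend (added after seeing the data) and each sample left out in turn. The fits were tested on simulated data. Pairs of samples of a group differed by 14.8 to 81.7 times counting noise per gene, so none was a duplicate library. Depth limits the subunits little, at 475 counts or more per sample.

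The members and lists were chosen with earlier results of these data known. Of the partner list, 2 genes are not reported here, and its counts leave them out. The text names the 5 subunits, the partner genes, other receptor genes with p under 0.05 or past the threshold, and the 3 genes most like each subunit. Figures were drawn with Python 3.11.15 and matplotlib 3.10.9.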

Additional observations from a re-analysis of the deposited data

How the results depend on the processing

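No subunit passed p under 0.005 for nPM under any alternative except Grik3 over both sexes without nPM males 4, so that the number of subunits past the threshold was 0 to 1 with a sample left out. In males against females it was 1 to 2, with Grik4 past it without control males 5. The log2 fold changes of these were -0.36 to -0.26 and -0.38 to -0.27. Estimates near 0 changed sign without changing a call. Over both sexes Grik2 was -3.79e-05 with edgeR, -0.00109 with DESeq2 and -0.000299 with age as a covariate, and Grik5 was -0.00579 with the GC trend removed. In males Grik2 was 0.00144 with sample quality weights and Grik5 -0.00297 with the GC trend removed. In females Grik5 was 0.00767 with edgeR, 0.00548 with DESeq2, 0.00637 without the filter, 0.0764 with quality weights and 0.000786 with the GC trend removed, and Grik4 was 0.0412 with quality weights. In the interaction Grik1 was -0.0219 with edgeR and -0.0244 with DESeq2, and Grik5 was -0.0667 with quality weights. Grik2 in males against females was 0.0719 with the GC trend removed. The cause of these changes was not tested.

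With a sample left out, sign changes were seen over both sexes for Grik2 (-0.034 to 0.028) and Grik5 (-0.031 to 0.063), in females for Grik1 (-0.202 to 0.031), Grik2 (-0.012 to 0.086), Grik4 (-0.127 to 0.096) and Grik5 (-0.084 to 0.108), and in males for Grik1 (-0.198 to 0.016), Grik2 (-0.101 to 0.034) and Grik5 (-0.042 to 0.105). They were also seen in the interaction for Grik1 (-0.141 to 0.149), Grik2 (-0.127 to 0.011) and Grik5 (-0.059 to 0.122), and in males against females for Grik2 (-0.050 to 0.012). With the replicate block, Grik3 over both sexes had a log2 fold change of -0.31 (n = 20 samples, limma p = 0.0215) and Grik5 in males against females -0.63, and no call of a subunit changed. Samples with the same number did not consistently vary together (r from -0.36 to 0.16 over 10 pairs within a sex, and from -0.42 to 0.28 over all 30 pairs, of which 10 were over 0.1), so the numbers were not taken to pair them. Without removal of the group means Grik4 and Grik5 had r = 0.68 (adjusted permutation p = 0.00680), and 5 further relations with marker lists passed.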

Other observations

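The dependence of a library's counts on GC content varied with the level of Grik2, the subunit with the most AT-rich transcript. This was 1 of 10 relations between a subunit and a library measure that passed by Pearson r, and 0 of 10 passed by both coefficients. The measure was the slope on GC content of log2 expression taken relative to the mean over the samples. Over the 20 samples with group means removed, this slope had r = -0.72 with Grik2 (permutation p = 0.00056, adjusted p = 0.00560) and rho = -0.60 (permutation p = 0.00697, adjusted p = 0.0697). The coefficient was -0.83 in females, -0.76 in males and -0.67 without the 2 farthest samples. Grik5, the most GC-rich, had r = 0.55 (permutation p = 0.0573, adjusted p = 0.275) and rho = 0.25 (permutation p = 0.330, adjusted p = 0.575), and r = -0.05 without the 2 farthest samples, so that its relation rested on those samples. With the GC trend removed, Grik5 was at -0.59 in males against females (n = 20 samples, limma p = 3.24e-08) and Grik3 at -0.31 for nPM over both sexes (limma p = 0.0174). The slope and the level of a subunit come from the same library.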
